A study of Mus musculus with 66 samples.

Results

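The 4 disaccharidases and related glycosidases of the intestinal brush border, Sis, Mgam, Treh and Lct, were followed across 3 cultures of mouse small intestinal organoids. The members were chosen by name: every transcript whose gene symbol was one of the 4 was taken, which gave 4 of 9481 transcripts and 4 of 8978 gene symbols. Organoids are small epithelial buds grown from intestinal crypts, and in all cultures here they came, by the methods of the study, from the Lgr5 GFPDTR/+ mouse line, in which the stem cell gene Lgr5 carries a reporter and a toxin receptor. In ENR, the regular medium, they received EGF, Noggin and R-Spondin, and they grew as a mixture of stem and differentiated cells. CV medium was ENR plus 3 µM CHIR99021, an inhibitor of the kinase GSK3, and 1 mM valproic acid, which inhibits histone deacetylases, and it is labelled as stem cell enriched. EN medium lacked R-Spondin-1, a Wnt enhancer, and is labelled as stem cell depleted. The labels give no age for the animals. By the methods of the study, CV was kept longer than EN before harvest, so medium and time cannot be told apart. Each culture was represented by 4 libraries for RNA and 4 for ATAC-seq, by 3 for each of the histone marks H3K27ac, H3K4me3 and H3K27me3, and by 1 for the factor Hnf4g. The labels do not say whether libraries of a culture came from separate cultures, so the p-values measure only the spread between these libraries, which may be technical.

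Disaccharidases are large enzymes anchored in the apical membrane of enterocytes, the absorptive cells of the villus. Their catalytic sites face the gut lumen and split dietary sugars and starch fragments into monosaccharides, which carriers of the same membrane then take up. Sucrase-isomaltase (Sis) splits sucrose and the branch points of starch, maltase-glucoamylase (Mgam) splits maltose and other starch fragments, trehalase (Treh) splits the fungal and insect sugar trehalose, and lactase (Lct) splits milk sugar and is known to decline after weaning. The genes are used as signs of enterocyte maturity, and the factors CDX2, GATA4 and HNF4 are known from promoter studies of Sis and Lct.

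In the mm9 build with GENCODE annotation, Sis lies at chr3:72692479-72771785 on the minus strand, Mgam at chr6:40578830-40719122 on the plus strand, Lct at chr1:130181333-130224895 on the minus strand and Treh at chr9:44481316-44494388 on the plus strand. The genes therefore lie on 4 chromosomes and range in length from 13073 bp in Treh to 140293 bp in Mgam. The 250 bases before each start are given here from RefSeq, since chromatin was measured at these starts. The RefSeq table is on GRCm38.p6, all 4 members matched by symbol, and each sequence was found once in mm9, directly before the start that GENCODE gives. Capitals mark matches on either strand to 4 short motifs. The letters searched for the CDX factors, which specify intestine, were TTTAT. The zinc finger factors of the GATA family were searched by the letters GATAA. The nuclear receptor HNF4 was searched by the letters CAAAGNNCA, where N stands for any base. The TATA box, which positions transcription at some starts, was searched as TATAAA.
Sis promoter, chr3:72771786-72772035, minus strand: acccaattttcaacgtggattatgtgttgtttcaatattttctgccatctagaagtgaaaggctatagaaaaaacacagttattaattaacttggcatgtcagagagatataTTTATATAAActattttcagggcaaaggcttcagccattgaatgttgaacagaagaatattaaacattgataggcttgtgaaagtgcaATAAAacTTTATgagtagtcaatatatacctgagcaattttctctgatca
Mgam promoter, chr6:40578580-40578829, plus strand: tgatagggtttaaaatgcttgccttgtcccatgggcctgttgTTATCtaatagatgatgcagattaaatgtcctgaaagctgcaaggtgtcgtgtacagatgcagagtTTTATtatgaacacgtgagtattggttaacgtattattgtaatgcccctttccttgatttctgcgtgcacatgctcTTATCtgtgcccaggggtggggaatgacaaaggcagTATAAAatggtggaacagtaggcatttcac
Treh promoter, chr9:44481066-44481315, plus strand: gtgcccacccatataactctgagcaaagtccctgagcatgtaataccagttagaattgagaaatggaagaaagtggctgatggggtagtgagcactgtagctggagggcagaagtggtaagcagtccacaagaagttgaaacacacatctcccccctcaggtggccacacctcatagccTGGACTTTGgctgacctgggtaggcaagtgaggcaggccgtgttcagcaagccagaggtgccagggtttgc
Lct promoter, chr1:130224896-130225145, minus strand: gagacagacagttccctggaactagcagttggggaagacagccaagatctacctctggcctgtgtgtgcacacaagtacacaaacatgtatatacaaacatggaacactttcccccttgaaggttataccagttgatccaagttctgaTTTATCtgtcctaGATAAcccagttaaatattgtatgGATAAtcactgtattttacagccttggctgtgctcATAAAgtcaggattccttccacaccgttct

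The promoters held different letters. Counted back from -1, the base before the start, Sis had 4 CDX matches beginning at -138, -133, -50 and -43, the first pair overlapping TATA box matches at -138 and -134. Lct had 3 GATA matches beginning at -101, -89 and -65 and CDX matches at -102, which overlaps the first GATA match, and at -30. Mgam had GATA matches at -208 and -66, a CDX match at -142 and a TATA box match at -30 that contains a further CDX match at -29. Treh held none of these and had 1 HNF4 match, which began at -71 on the opposite strand. Among all 32851 RefSeq promoters, searched over 300 bases that include 50 after the start, 40.0% held the CDX letters, 25.4% GATA, 6.4% HNF4 and 13.6% the TATA box. Such matches are letters in a window, not sites shown to be bound.

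Expression rose from CV to ENR to EN in Sis, Treh and Lct, and Mgam rose in EN, as the plot of TPM by library shows. TPM scales the transcripts of each library, corrected for length, to the same total, so TPM levels of different genes can be set side by side. For Sis, the sucrase, the CV libraries had 349, 311, 319 and 367 TPM, the ENR libraries 1100, 1039, 1098 and 1132 TPM, and the EN libraries 6098, 5833, 6124 and 6374 TPM. The cultures did not overlap, and Sis was the highest of the 4 in every library. For Mgam, the maltase, the values were 186, 167, 171 and 195 TPM in CV, 184, 179, 193 and 201 TPM in ENR, and 624, 609, 609 and 665 TPM in EN. Its EN libraries stood above all others, while CV and ENR overlapped.

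**Figure D1:**
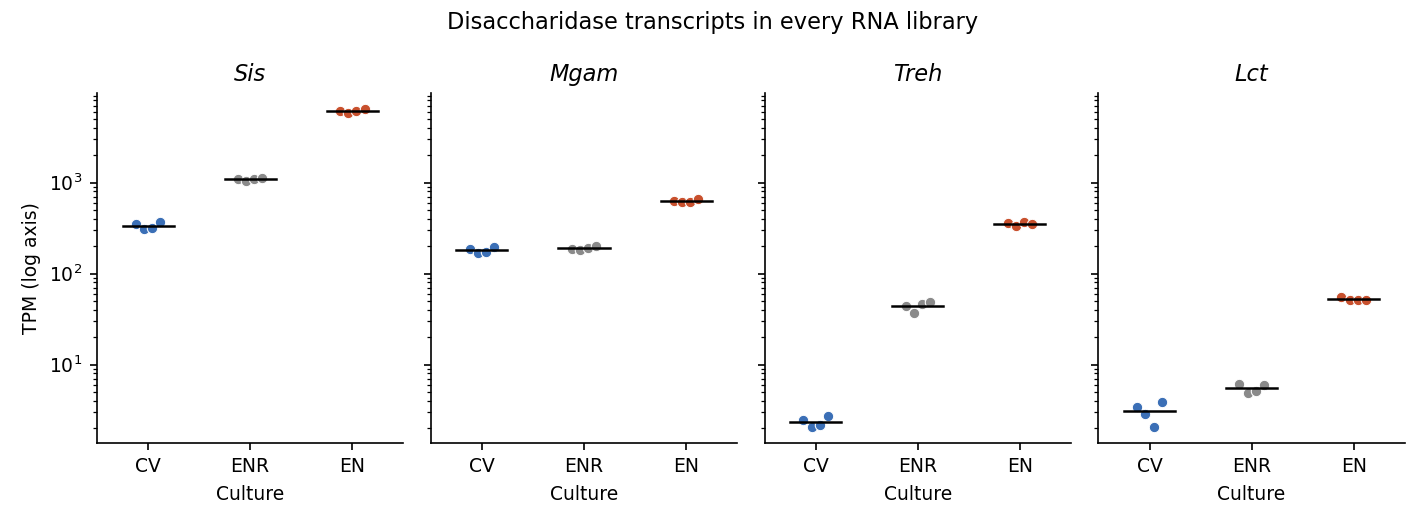
TPM of Sis, Mgam, Treh and Lct in each of 4 RNA libraries of CV, ENR and EN, on a log axis, with a bar at the mean. EN lies above the other cultures for all 4 genes, and CV and ENR overlap for Mgam, at a mean of 180 and 189 TPM.

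Treh, the trehalase, was nearly silent in CV, with 2.43, 2.06, 2.15 and 2.73 TPM. It had 43.8, 36.4, 46.0 and 48.4 TPM in ENR and 357, 329, 370 and 349 TPM in EN. The 3 cultures stood apart, and the CV values rest on 18 to 26 counts per library. Lct, the lactase, had 3.40, 2.86, 2.07 and 3.86 TPM in CV, 6.05, 4.81, 5.11 and 5.92 TPM in ENR and 55.6, 50.8, 51.8 and 51.5 TPM in EN. Its cultures did not overlap either, but it was the lowest of the 4 in all ENR and EN libraries. In CV the 60 to 121 counts per library of Lct gave a coefficient of variation of 25.3%, against 13.0% for Treh and 7.7% for Sis. The order of the means was thus Sis, Mgam, Treh and Lct in ENR and EN, with no overlap between neighbors. In CV, Sis and Mgam led again, and Lct and Treh overlapped.

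Relative to CV, EN libraries had 22.6-fold more Sis (log2 fold change 4.50, SE 0.053, adjusted p = 5.7e-18), 4.34-fold more Mgam (2.12, SE 0.051, adjusted p = 5.9e-15), 185-fold more Treh (7.53, SE 0.1, adjusted p = 1.3e-17) and 21.3-fold more Lct (4.41, SE 0.105, adjusted p = 5.4e-15) in edgeR's quasi-likelihood test on the counts. All 4 transcripts were called higher at an adjusted p under 0.01, as were 35.2% of the 9288 transcripts tested, while 76.4% were called in either direction. A call alone therefore says little here, and the size of the change sets the members apart from the median transcript, at -0.08. By log2 fold change, Treh ranked 22 of 9288, Sis 115, Lct 121 and Mgam 494. With the deposited mRNA copy numbers, scaled to spike-in RNA by the authors, the log2 fold changes were 5.83, 3.20, 9.05 and 5.66 for Sis, Mgam, Treh and Lct while the median transcript moved to 0.72. With the counts scaled to the spike-ins they were 4.08, 1.69, 7.12 and 3.99 and the median was -0.49. Relative to that median, the change was 4.58 for Sis in the main scaling, 5.11 with copies and 4.57 with spike-ins, and 7.61, 8.33 and 7.61 for Treh in the same order. Scaling the counts to spike-ins shifts all transcripts about alike, so its values relative to the median match the main scaling by construction. The split of all calls into higher and lower transcripts was 3267 and 3829 in the main scaling, 4286 and 1227 with copies and 1473 and 4292 with spike-ins.

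Between EN and ENR, which differ in R-Spondin-1, the members again were higher in EN. The fold was 6.24 for Sis (log2 fold change 2.64, SE 0.049, adjusted p = 6.3e-16), 3.69 for Mgam (1.88, SE 0.05, adjusted p = 2.5e-14), 8.97 for Treh (3.17, SE 0.065, adjusted p = 1.5e-15) and 10.6 for Lct (3.41, SE 0.096, adjusted p = 4.4e-14, edgeR). Of all transcripts 35.5% were called higher and 72.7% in either direction. Lct, at rank 42 of 9288, came before Treh at 72, Sis at 151 and Mgam at 425. With copies the log2 fold changes were 3.77, 3.04, 4.55 and 4.95 for Sis, Mgam, Treh and Lct against a median of 1.06, and with spike-ins 2.13, 1.37, 2.67 and 2.92 against -0.52. The split of all calls was 3301 higher and 3455 lower in the main scaling, 5403 and 797 with copies and 1094 and 4275 with spike-ins.

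Between CV and ENR the members moved by unequal amounts. Treh was 20.7-fold lower in CV (log2 fold change -4.37, SE 0.123, adjusted p = 2.8e-13), Sis 3.62-fold lower (-1.86, SE 0.048, adjusted p = 1.3e-13) and Lct 2.01-fold lower (-1.01, SE 0.132, adjusted p = 6.7e-06, edgeR). Mgam differed least, by -0.23 (SE 0.049, adjusted p = 0.00065, edgeR), although its TPM values overlapped. All 4 were called lower, as were 29.8% of all transcripts, while 30.2% were higher and 60.0% called in either direction. The call for Mgam was lost with spike-in scaling (-0.32, adjusted p = 0.101), with copies (-0.15, adjusted p = 0.714 by limma) and on TPM (-0.08, adjusted p = 0.218 by limma), and that for Lct with copies (-0.71, adjusted p = 0.0603 by limma). The split of all calls was 2804 higher and 2765 lower, against 1339 and 441 with copies and 1039 and 1597 with spike-ins.

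**Figure D2:**
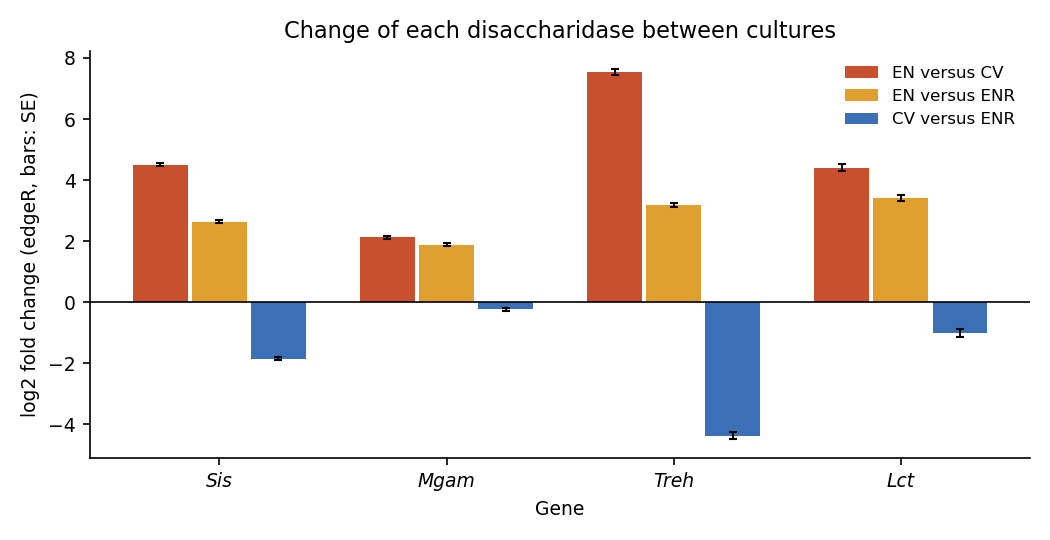
Log2 fold change from edgeR of each gene in the 3 comparisons of cultures, with error bars of 1 SE. Treh spans the widest range, from 7.53 in EN over CV to -4.37 in CV over ENR, and Mgam the narrowest, from 2.12 to -0.23.

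The mixture of the 4 enzymes' transcripts shifted with these unequal changes. Their summed TPM was 483 to 568 in CV, 1260 to 1390 in ENR and 6820 to 7440 in EN. Sis took 64.4% to 64.5% of this sum in CV, 81.6% to 82.5% in ENR and 85.5% to 85.7% in EN. The share of Mgam went the other way, from 34.3% to 34.6% in CV to 8.51% to 8.93% in EN. Treh rose from 0.427% to 0.481% of the sum in CV to 4.69% to 5.17% in EN, while Lct stayed at 0.78% or less in all 12 libraries. Shares of one sum are tied to each other, so they describe the mixture and not separate changes.

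Whether members changed by different amounts was tested within libraries, as the difference of 2 members in log2(TPM + 1), for all 6 pairs in the 3 comparisons. Of these 18 differences, 17 passed an exact two-sided permutation test of 4 against 4 libraries with p = 0.0286, the smallest p this design allows, and adjusted p = 0.0303. From CV to EN, Treh rose more than Mgam by 4.92 on the log2 scale, more than Lct by 2.98 and more than Sis by 2.54, and Sis rose more than Mgam by 2.38. Lct and Treh overlapped in CV, while Lct was below Treh in every EN library. Lct minus Treh was 0.26 ± 0.2 (SD, n = 4) in CV and -2.72 ± 0.07 in EN. From ENR to EN, by contrast, Lct minus Treh moved by 0.06, from -2.78 ± 0.13 (exact permutation p = 0.429, adjusted p = 0.429), and with a pseudocount of 0.1 it moved by 0.23 and passed (exact permutation, adjusted p = 0.0303). The smallest difference that passed between EN and CV was Sis over Lct, at 0.44, and it did not pass with a pseudocount of 0.1 (0.09, exact permutation, adjusted p = 0.629) or on CPM (0.16, exact permutation, adjusted p = 0.314). Without any single EN library its value was 0.41 to 0.47 with an exact permutation adjusted p = 0.0605.

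In bulk cultures fewer cells of a type and less RNA per cell cannot be told apart. Enterocyte markers were higher in EN than CV in 8 of 8 transcripts, with a summed level of 19600 to 20700 TPM in CV, 9740 to 11300 TPM in ENR and 53000 to 60400 TPM in EN. Between CV and ENR, 4 of these markers were higher and 3 lower in CV, and the counts were 3 and 2 with spike-in scaling and 1 and 1 with copies. Fabp1, a fatty acid binding protein, was 2.19-fold higher in CV than in ENR (adjusted p = 1.9e-09, edgeR), but with copies it did not pass (log2 fold change 1.01, adjusted p = 0.141 by limma). Among the 3 lower markers, Apoa1 was 5.02-fold lower in CV (adjusted p = 1.7e-12, edgeR), where Sis, Treh and Lct were lower too. Stem cell markers fell in 5 of 5 from CV to EN, with sums of 236 to 274 TPM in CV, 912 to 996 TPM in ENR and 16.6 to 18.4 TPM in EN, and proliferation markers in 5 of 5. The study labels CV as stem cell enriched from images of an Lgr5 reporter and from stem cell markers in protein and RNA. The images and proteins were not analysed here. In these RNA libraries CV had none of the 5 stem cell markers higher than ENR, with 4 called lower in the main scaling, 2 with spike-ins and 1 with copies. Of the 4, Lgr5 was 1.43-fold lower, Axin2 1.17-fold, Smoc2 1.15-fold and Olfm4 110-fold. Lgr5 itself had a mean of 31.3 TPM in CV, 40.2 TPM in ENR and 0.513 TPM in EN, and Olfm4, another stem cell marker, 7.04, 708 and 0.306 TPM, so CV and ENR are given by their media and not as an order of stem cell content. Goblet markers (5 of 5 transcripts tested), enteroendocrine markers (3 of 3, Neurod1 was not in the table) and tuft markers (3 of 3) also rose, and 3 of 4 Paneth markers fell. Their sums moved from 1670 to 1790 TPM in CV to 6200 to 7420 TPM in EN for goblet, from 33.5 to 54.6 TPM to 1330 to 1600 TPM for enteroendocrine and from 0.568 to 1.6 TPM to 20.8 to 28.2 TPM for tuft markers. Markers of other differentiated cells were thus higher in EN beside those of enterocytes, and their part in the disaccharidase values was not tested.

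Of 11 transcripts for sugar carriers and the sodium pump, 10 were higher and 1 lower in EN than CV, with a median log2 fold change of 3.93 against -0.08 for all transcripts, and 11 of 11 were higher in EN than ENR (median 2.63). Slc5a1, the sodium-glucose carrier of the apical membrane, had a mean of 286 TPM in CV, 259 TPM in ENR and 1381 TPM in EN, and Slc2a5, the fructose carrier, 14.6, 32.5 and 180 TPM. Slc2a2, which passes sugars on to the blood, changed by 4.25 (adjusted p = 1.6e-15, edgeR), beside 4.41 for Lct. Slc5a4a, with the largest fitted change, had 0 to 3 counts in each CV library and 273 to 412 in each EN library, so no fold is given. Slc2a1, a glucose carrier of most cells, was the exception at -0.95 (adjusted p = 1.7e-09, edgeR), a call lost with copies (-0.22, adjusted p = 0.464 by limma).

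Enzymes that use fructose and galactose were higher in EN than CV in 11 of 15 transcripts, lower in 2 and not called in 2, with a median of 1.92. A transcript of Tkfc, triokinase, had the largest change at 4.37 (adjusted p = 3.4e-10, edgeR), and Akr1b3, an aldose reductase, the lowest at -2.70 (adjusted p = 1.8e-14, edgeR). Of 13 transcripts for glycosidases of the lysosome, ER and cytosol, 2 were higher, 8 lower and 3 not called, with a median of -0.64. Their direction turned with the scaling, since the median was -1.07 with spike-ins (1 higher, 10 lower) and 0.12 with copies (3 higher, 1 lower), where the median of all transcripts was 0.72. Ganc, a neutral glucosidase, had the largest change at 1.26 and Gla, the lysosomal alpha-galactosidase, the lowest at -1.96 (adjusted p = 1.1e-10 and 8.8e-11, edgeR). Gaa, the lysosomal glucosidase related to Sis and Mgam in sequence, changed by -0.59 (adjusted p = 2e-05, edgeR), and by 0.14 with copies (adjusted p = 0.641 by limma).

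Other hydrolases and proteins of the brush border were higher in EN than CV in 13 of 14 transcripts and lower in 1, with a median of 3.1, and higher in 14 of 14 against ENR. The peptidase Mme changed by 6.36 (adjusted p = 1.5e-17, edgeR), the largest of the list and below Treh. Mep1a, a meprin subunit, changed by -0.67 (adjusted p = 2.1e-08, edgeR), from a mean of 67.1 TPM in CV to 33.7 TPM in EN, with 7.51 TPM in ENR, while with copies it differed by 0.09 (adjusted p = 0.758 by limma). Of the factors known from disaccharidase promoters, 6 of 12 transcripts were higher in EN than CV, 3 lower and 3 not called, and Gata5 was not in the table. Their median of 0.21 became -0.18 with spike-ins and 1.00 with copies. Hnf4g rose most, from 48.1 TPM in CV and 130 TPM in ENR to 444 TPM in EN (3.52, adjusted p = 5.1e-17, edgeR). Hnf4a differed by -0.05 (adjusted p = 0.15, edgeR) and Cdx2 by -0.13 (adjusted p = 0.0067, edgeR). With copies the values were 0.82 and 0.72 (adjusted p = 0.00902 and 0.019 by limma), so Cdx2 did not pass. The median of all transcripts was itself 0.72 with copies. Pdx1 had the lowest value, -1.44, without passing the test (adjusted p = 0.017, edgeR), and with spike-ins it passed at -1.86 (adjusted p = 0.00505, edgeR).

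**Figure D3:**
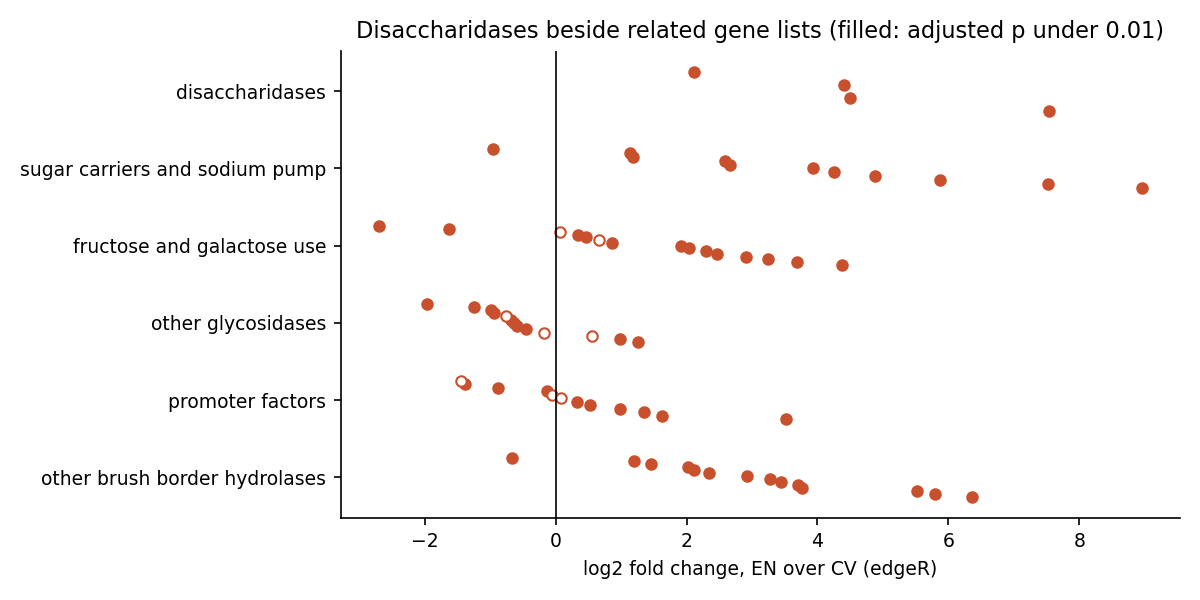
Log2 fold change of EN over CV from edgeR for each tested transcript of the disaccharidases and 5 related lists, 1 point per transcript, filled where the adjusted p is under 0.01. The median is 3.93 for sugar carriers and 3.1 for other brush border hydrolases, and -0.64 for the other glycosidases, which is 0.12 with copies.

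For each member, the transcripts of other genes with the most similar pattern were sought among 7999 transcripts with a mean of at least 10 CPM, by the root mean square difference of log2 CPM values centered over the 12 libraries. Nearest to Sis came Gm6086 (0.107), Ces1e (0.176), a carboxylesterase, and Agmo (0.179), which cleaves ether lipids. Nearest to Mgam were Sec23a (0.065), a coat protein of vesicles that leave the ER, Aldh1a7 (0.067) and Gna11 (0.086). The carrier Slc2a2 (0.16) was nearest to Lct, followed by Gsta1 (0.169), a glutathione transferase, and Trim38 (0.211). Treh had the least close neighbors, Afp (0.258), or alpha-fetoprotein, Cyp2c29 (0.292) and the sodium-sugar carrier relative Slc5a4b (0.335). Slc2a2 had a mean of 47.4, 93.2 and 902 CPM and Afp of 0.453, 28.2 and 257 CPM in CV, ENR and EN.

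Chromatin was read in 35 of 94469 regions of the authors' union of peaks that overlap a member or lie within 10000 bp of it, 16 at Mgam, 8 at Treh, 7 at Sis and 4 at Lct. Each is named by its gene and the distance in bp of its center from the start, and positions are those of the deposited table, which does not state whether it counts from 0 or 1. The value is a read count that the authors normalized between libraries and rounded, here called a score, and differences are given as log2(score + 1). Of these regions, 6 lie within 500 bp of an annotated start of Sis, Mgam or Treh, and none at Lct. The regions with the largest ATAC change at Lct, Mgam and Treh are shown as the central 300 bases, written on the strand of the gene, with the same motifs in capitals.
Lct +4870, intron, chr1:130219876-130220175, minus strand, mm9: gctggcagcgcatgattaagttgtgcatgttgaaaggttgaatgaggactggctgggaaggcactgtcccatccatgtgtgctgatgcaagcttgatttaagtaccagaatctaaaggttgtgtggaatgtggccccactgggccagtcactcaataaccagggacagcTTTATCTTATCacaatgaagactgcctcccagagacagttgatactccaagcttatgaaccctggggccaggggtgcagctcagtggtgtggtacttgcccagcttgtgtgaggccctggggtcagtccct
Mgam +16895, intron, chr6:40595576-40595875, plus strand, mm9: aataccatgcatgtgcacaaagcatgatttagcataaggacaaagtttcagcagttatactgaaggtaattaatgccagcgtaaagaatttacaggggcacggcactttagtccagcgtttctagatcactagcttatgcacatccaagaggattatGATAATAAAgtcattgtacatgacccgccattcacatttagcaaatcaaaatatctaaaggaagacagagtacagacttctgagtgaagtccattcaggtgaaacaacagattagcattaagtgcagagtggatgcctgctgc
Treh +6485, intron, chr9:44487652-44487951, plus strand, mm9: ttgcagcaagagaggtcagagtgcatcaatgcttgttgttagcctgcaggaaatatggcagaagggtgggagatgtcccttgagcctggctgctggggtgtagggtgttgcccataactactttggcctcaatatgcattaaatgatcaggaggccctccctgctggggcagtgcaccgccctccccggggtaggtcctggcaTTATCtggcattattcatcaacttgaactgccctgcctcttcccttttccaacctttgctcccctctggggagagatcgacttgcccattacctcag

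The 3 windows each held GATA letters, with 2 matches in Lct +4870, 1 in Mgam +16895 and 1 in Treh +6485. Those of Lct +4870 begin at bases 171 and 176 of the window, with a CDX match at 170 that overlaps the first, and that of Mgam +16895 begins at 158 and shares a base with a CDX match at 162. None of the 3 windows held the HNF4 letters CAAAGNNCA, which says nothing of other forms of that motif. Of 94340 such windows over the union of peaks, 36.8% held the GATA letters, 49.9% CDX and 14.0% HNF4, so these letters are common.

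Accessible DNA, measured by ATAC-seq, was higher in EN than CV in 14 of the 35 regions, lower in 4 and not called in 17 (limma, adjusted p under 0.05), where 19.6% of all 94166 regions tested were higher, 15.6% lower and 35.2% called. Against ENR 11 were higher, 3 lower and 21 not called, where 11.6% of all were higher, 12.5% lower and 24.0% called. Quantile normalization turned the split over all regions against CV from 18480 higher and 14675 lower to 15528 and 17865. Against ENR it moved from 10880 and 11736 to 9256 and 12962. The summed score per library was 1752385 to 1840402 in CV, 1897795 to 1962331 in ENR and 1993594 to 2109261 in EN. By gene, the higher regions from CV to EN were 3 of 4 at Lct, 5 of 7 at Sis, 4 of 16 at Mgam and 2 of 8 at Treh. The Treh regions from Treh +17604 to Treh +19176 overlap the neighboring gene Phldb1, and none of those was higher. Lct -9621, which overlaps the neighboring gene Mcm6, was among the higher ones. At the thresholds that the study used for ATAC (1e-05), 6 of these 18 calls against CV and 1 of 14 against ENR were kept, the latter at Lct +4870. The threshold was applied here to limma, while the study identified its changing regions with DESeq2.

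The strongest change was in an intron of Lct, where Lct +4870 (chr1:130219840-130220211) had ATAC scores of 3, 3, 4 and 2 in CV, 11, 10, 7 and 10 in ENR and 71, 52, 45 and 55 in EN. The cultures did not overlap and followed the order of Lct RNA. The difference was 3.83 from CV (SE 0.226, adjusted p = 2e-09 by limma) and 2.43 from ENR (SE 0.226, adjusted p = 9.5e-07 by limma). Upstream, Lct -9621 (chr1:130234330-130234703), which overlaps the neighboring gene Mcm6 and was chosen after its values were seen, had 1, 3, 3 and 4 in CV, 4, 4, 4 and 4 in ENR and 17, 10, 22 and 31 in EN, a difference of 2.46 from CV (SE 0.335, adjusted p = 1.6e-05 by limma). A low region, Lct +13650, differed by 1.83 from CV with a mean score of 5.5 in EN. The 99 bp exon region Lct +24222 was not called, and there 1 EN library had a score of 78 beside 7, 8 and 15 in the others.

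At Treh both a region in an intron and the one at the start were higher in EN than CV. Treh +6485 (chr9:44487615-44487988) had ATAC scores of 5, 8, 6 and 9 in CV, 18, 24, 16 and 13 in ENR and 39, 60, 32 and 44 in EN, without overlap. It differed by 2.48 from CV (SE 0.237, adjusted p = 3.6e-07 by limma) and by 1.25 from ENR (SE 0.237, adjusted p = 0.00083 by limma). Treh -8 (chr9:44481159-44481457), over the start, had 6, 8, 6 and 9 in CV but 29, 31, 19 and 25 in ENR and 20, 29, 24 and 23 in EN. ENR and EN overlapped at the start and both stood above CV, with a difference of 1.61 from CV (SE 0.208, adjusted p = 9.5e-06 by limma) and of -0.10 from ENR (adjusted p = 0.77 by limma), where Treh RNA still differed 8.97-fold. The region with the highest mean at this locus, Treh +18798, lies in the neighboring gene Phldb1 and was lower in EN than CV by -0.79 (adjusted p = 0.0094 by limma).

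At Sis the region over the start was not called in ATAC. Sis -36 (chr3:72771662-72771980) had 26, 15, 34 and 24 in CV, 27, 20, 37 and 39 in ENR and 26, 20, 35 and 43 in EN, with full overlap. The difference from CV was 0.31 (SE 0.266, adjusted p = 0.40 by limma) and from ENR 0.00 (adjusted p = 1 by limma), while Sis RNA differed 22.6-fold between EN and CV. Sis +1090 (chr3:72770494-72770896), over an exon and close to another annotated start of Sis, had 1, 4, 6 and 2 in CV, 1, 6, 9 and 7 in ENR and 5, 16, 8 and 15 in EN. Its difference from CV of 1.53 (adjusted p = 0.02 by limma) was not called without CV replicate 1 (adjusted p = 0.0734), CV replicate 4 (0.0588), EN replicate 2 (0.068) or EN replicate 4 (0.0652, limma). Sis -8935, upstream, went the other way with 64, 49, 49 and 62 in CV, 44, 45, 50 and 40 in ENR and 19, 27, 24 and 39 in EN, lower in all EN libraries (-1.05 from CV, SE 0.184, adjusted p = 0.00022 by limma). Sis +82226, a region 99 bp wide beyond the end of the gene, rose from 1, 0, 1 and 0 in CV and 2, 3, 1 and 2 in ENR to 17, 11, 7 and 12 in EN (3.11 from CV, SE 0.366, adjusted p = 3.4e-06 by limma).

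At Mgam the region by the start, Mgam -136 (chr6:40578526-40578862), had 4, 10, 14 and 17 in CV, 14, 25, 26 and 26 in ENR and 42, 25, 28 and 35 in EN. EN was above all CV libraries and overlapped ENR, with a difference of 1.57 from CV (SE 0.319, adjusted p = 8e-04 by limma) and of 0.51 from ENR (adjusted p = 0.27 by limma). Mgam +16895 (chr6:40595514-40595936) rose most, from 5, 5, 6 and 5 in CV and 10, 17, 10 and 13 in ENR to 25, 42, 41 and 46 in EN (2.63 from CV, SE 0.229, adjusted p = 1.3e-07 by limma). The most accessible region of all 35, Mgam +6466, at a mean score of 105, did not pass in either comparison (-0.30 from CV, adjusted p = 0.13 by limma), and with quantile normalization its value from CV was -0.50 (adjusted p = 0.0122 by limma). Mgam +32271 went down, from 7, 10, 11 and 20 in CV and 4, 4, 3 and 7 in ENR to 1, 2, 1 and 2 in EN (-2.32 from CV, adjusted p = 2.9e-05 by limma).

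**Figure D4:**
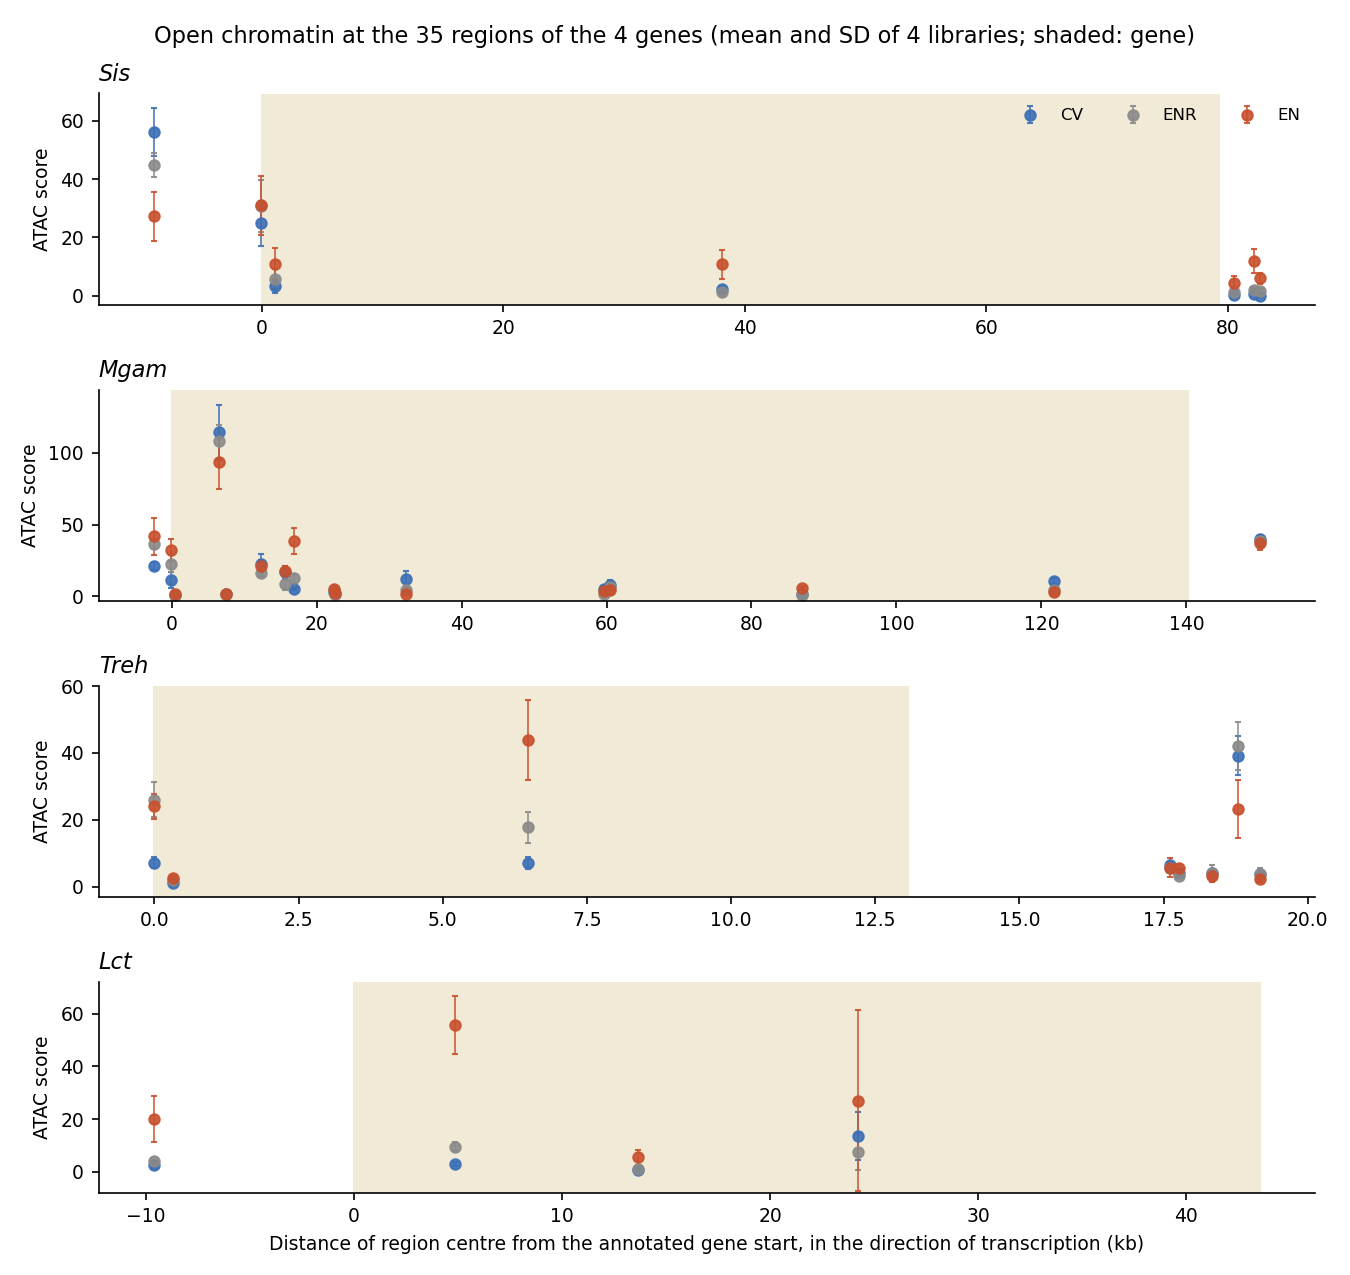
Mean ATAC score with SD over 4 libraries at the 35 regions of Sis, Mgam, Treh and Lct, against distance in kb from the gene start in the direction of transcription, with the gene shaded. The intron regions Lct +4870 and Treh +6485 are highest in EN, Sis -36 overlaps between cultures and Sis -8935 is lowest in EN.

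Acetylation of H3K27, a mark of active promoters and enhancers, was higher in EN than CV in 6 of 35 regions and lower in 0, where 5.07% of all regions were higher, 1.96% lower and 7.03% called. Against ENR 3 were higher, where 1.22% of all were higher, 0.353% lower and 1.57% called. Quantile normalization moved the split over all regions from 1147 higher and 333 lower to 290 and 419 against ENR, and from 4780 and 1847 to 2486 and 1752 against CV. The valproic acid in CV medium inhibits histone deacetylases, and its effect on these scores cannot be told apart from that of the culture. Sis +1090 had H3K27ac scores of 2, 6 and 6 in CV, 16, 15 and 15 in ENR and 130, 79 and 153 in EN, the largest difference of the locus regions and without overlap. It was 4.47 higher than CV (SE 0.473, adjusted p = 1.3e-07) and 2.84 higher than ENR (SE 0.473, adjusted p = 0.00076 by limma). The latter was not called without EN replicate 4 (adjusted p = 0.0586) or without a trend (adjusted p = 0.103 by limma). Without a trend, limma draws the spread of each region toward a value common to all score levels. Sis -36, not called in ATAC, had 8, 17 and 3 in CV, 6, 4 and 4 in ENR and 61, 24 and 42 in EN, also without overlap. Its difference of 2.23 from CV (adjusted p = 0.013 by limma) was lost without CV replicate 5 (0.094), EN replicate 2 (0.12) or EN replicate 4 (0.0892) and without a trend (0.0708). That of 2.86 from ENR (adjusted p = 0.0055 by limma) was lost without ENR replicate 2 (0.0593), ENR replicate 4 (0.0658), EN replicate 2 (0.134) or EN replicate 4 (0.105) and without a trend (0.111).

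At Mgam, H3K27ac rose in 4 regions from CV to EN. Upstream, Mgam -2449 (chr6:40576064-40576698) had 13, 18 and 25 in CV, 36, 28 and 34 in ENR and 56, 68 and 90 in EN (1.90 from CV, SE 0.389, adjusted p = 0.0016 by limma), and without a trend the adjusted p was 0.0541 by limma. Mgam +434, in an intron, had 4, 5 and 3 in CV, 7, 7 and 7 in ENR and 41, 20 and 21 in EN (2.45 from CV, adjusted p = 0.0041 by limma), and without EN replicate 2 the adjusted p was 0.0536 by limma. Mgam -136 (2.14 from CV, adjusted p = 0.019 by limma) was not called without CV replicate 3 (0.0735), EN replicate 2 (0.0788), EN replicate 3 (0.0665), EN replicate 4 (0.14) or a trend (0.0741). Mgam +16895 (2.25, adjusted p = 0.014 by limma) was not called without EN replicate 2 (0.102), EN replicate 4 (0.0655) or a trend (0.0511). At Lct and Treh no region was called in H3K27ac. Lct +4870 had 11, 19 and 8 in CV, 2, 3 and 5 in ENR and 8, 2 and 10 in EN, so EN overlapped both (-0.95 from CV, adjusted p = 0.42 by limma). Treh -8 had 8, 12 and 32 in CV, 14, 6 and 7 in ENR and 27, 22 and 19 in EN (0.58 from CV, adjusted p = 0.61 by limma).

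H3K4me3, a mark of active gene starts, was higher in EN than CV in 5 of 29 regions tested and lower in 0, where 2.75% of all regions were higher and 4.90% called, and higher than ENR in 4, where 5.48% were higher, 0.700% lower and 6.18% called. The direction over all regions turned with quantile normalization, from 4265 higher and 545 lower to 647 and 1122 against ENR and from 2139 and 1673 to 952 and 2264 against CV. Sis +1090 had scores of 3, 4 and 5 in CV, 7, 11 and 6 in ENR and 27, 36 and 43 in EN (2.86 from CV, SE 0.281, adjusted p = 0.001, and 2.03 from ENR, adjusted p = 0.0067 by limma). Sis +38135, in an intron, was also called from CV and from ENR (adjusted p = 0.0043 and 0.0042 by limma). Its scores were near the floor, at 0 in every CV and ENR library and 1 to 2 in EN. The call from ENR was lost with quantile normalization (adjusted p = 0.0865 by limma). At the region over the RefSeq start itself, Sis -36, the scores were 1, 3 and 5 in CV, 4, 5 and 2 in ENR and 6, 16 and 11 in EN, which did not pass (1.63 from CV, adjusted p = 0.12 by limma) except with quantile normalization (1.80, adjusted p = 0.021 by limma). Treh +324, just inside the gene, had 0, 0 and 1 in CV, 1, 1 and 2 in ENR and 12, 6 and 11 in EN (3.03 from CV, SE 0.378, adjusted p = 0.0038 by limma). Its EN libraries stood above ENR too (2.17, adjusted p = 0.017 by limma), with adjusted p of 0.0653 without ENR replicate 1, 0.0671 without ENR replicate 2 and 0.0625 without EN replicate 4 (limma). In ATAC this region had scores of 2, 3, 2 and 1 in ENR and 2, 3, 3 and 2 in EN, and whether the marks differ in their change was not tested. The low scores at Treh -8 (2, 1 and 0 in CV, 4, 2 and 3 in ENR, 5, 9 and 15 in EN) gave 2.44 from CV (adjusted p = 0.032 by limma), and those at Mgam +434 (4, 4 and 3, then 3, 5 and 4, then 8, 16 and 20) gave 1.67 (adjusted p = 0.031 by limma). Each of these 2 calls was lost in 7 of 9 settings that left out a library, with adjusted p of 0.0563 to 0.12 and of 0.0569 to 0.134 (limma).

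H3K27me3, the Polycomb mark of silenced genes, was not called in any of the 35 regions in either comparison (0 of 35 each by limma), where 0.528% of all regions were called between EN and CV, 0.388% as lower in EN, and 0.0127% between EN and ENR. The split over all regions between EN and CV turned from 132 higher and 367 lower to 128 and 19 with quantile normalization. The SE of the 35 differences was 0.552 to 0.781 on the log2 scale, against 0.141 to 0.652 in ATAC, so the absence of a call does not show that the mark was equal. For this broad mark the study extended the peaks, so a score can reach beyond the named region and neighboring regions can share reads. At an unadjusted p under 0.05, 5 of the 35 regions differed between EN and CV and 4 between EN and ENR, where 9.08% and 11.6% of all regions did. Neighbors among them are therefore not separate observations. The most negative of these was Treh -8, which had scores of 21, 16 and 9 in CV, 1, 5 and 12 in ENR and 4, 3 and 1 in EN, a difference of -2.18 from CV (unadjusted p = 0.0052, adjusted p = 0.25 by limma). EN lay below CV there without overlap. Among the higher ones, Treh +17765, in the neighboring gene Phldb1, differed by 2.12 (unadjusted p = 0.0036, adjusted p = 0.21 by limma).

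**Figure D5:**
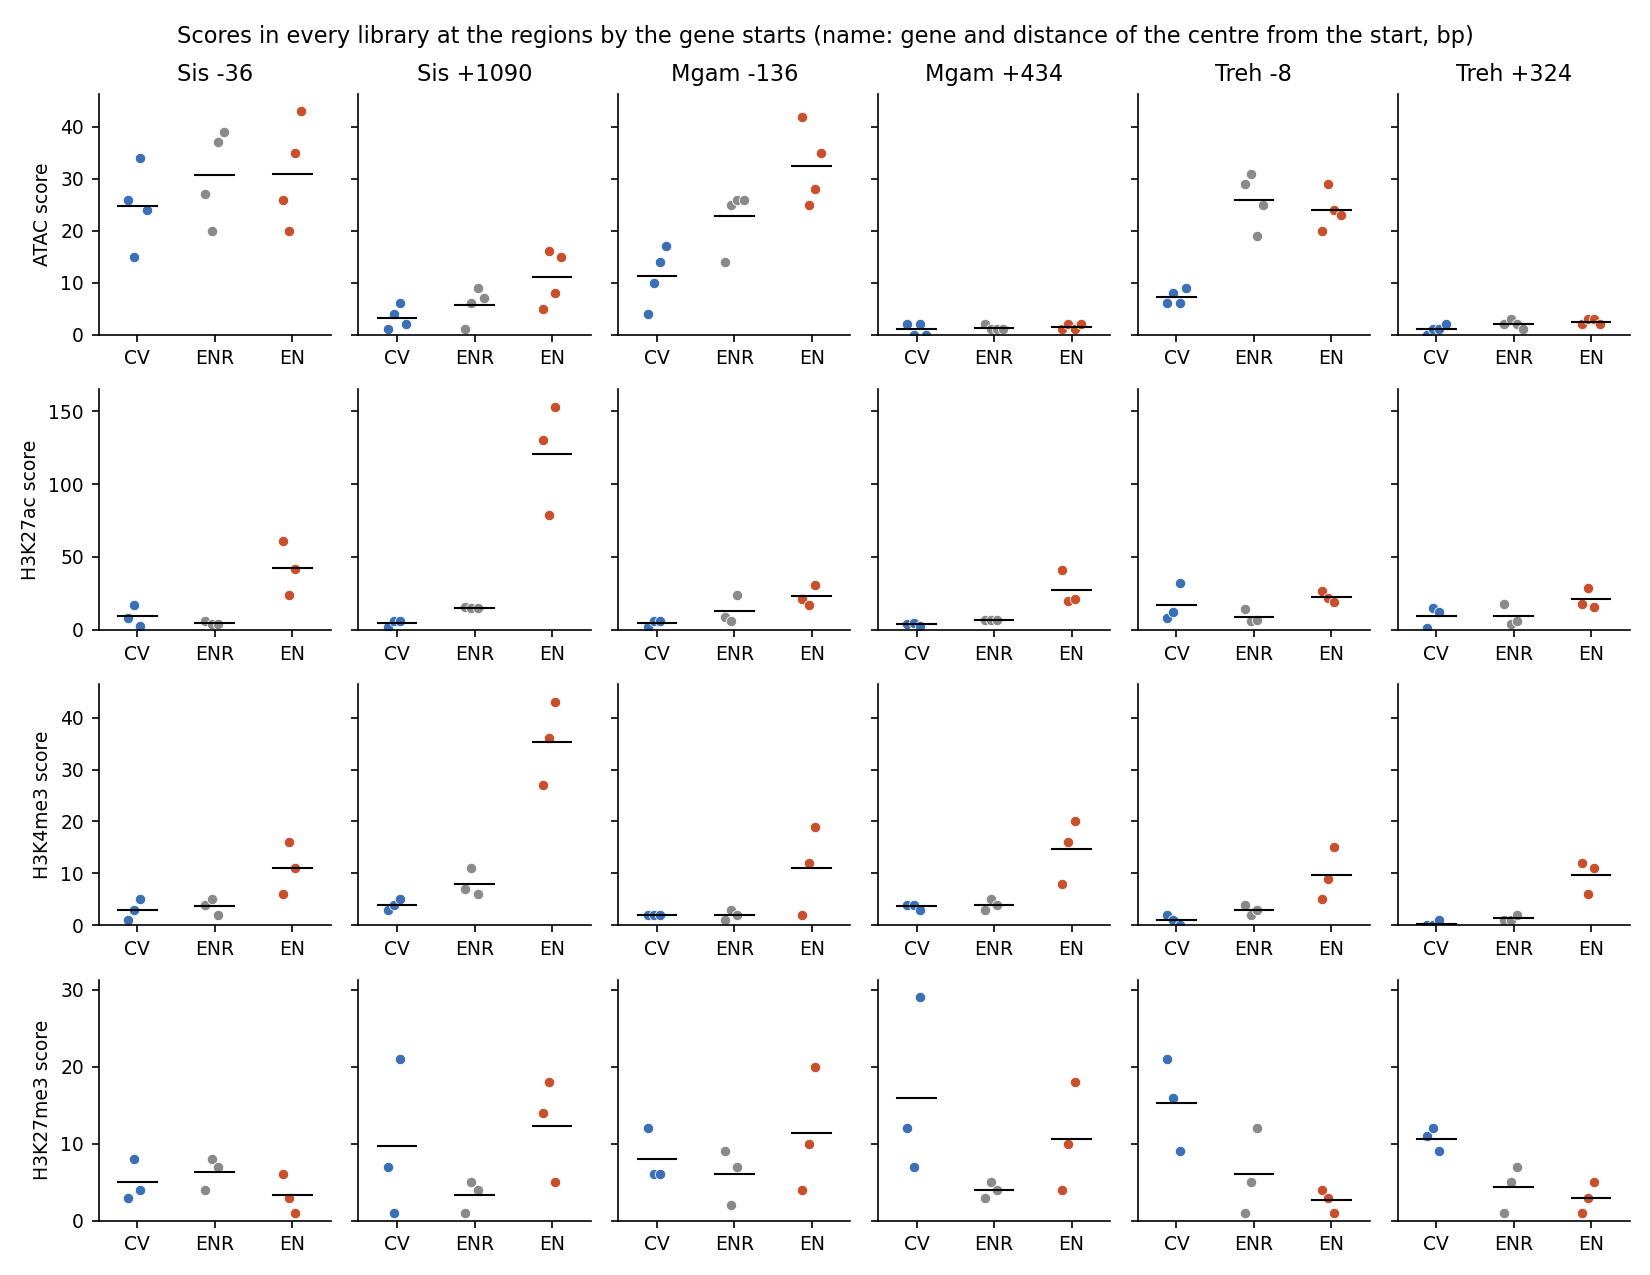
Scores in every library at the 6 regions by the starts of Sis, Mgam and Treh for ATAC (4 libraries per culture) and 3 histone marks (3 per culture), with a bar at the mean. Sis +1090 reaches 130, 79 and 153 in H3K27ac in EN, whereas the ATAC scores of Sis -36 overlap between all cultures.

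Hnf4g, the factor with the largest rise of its list, was mapped by ChIPmentation in 1 library per culture, so the reads have no replicate check and no test. The libraries held 84340 reads within regions in CV, 352600 in ENR and 1816497 in EN, and a region without reads can hold up to 35.6 RPM, the reads scaled to a common total per library, in CV and 8.51 RPM in ENR, from a limit of 3 reads. Treh +6485 had 111 reads in EN, or 61.1 RPM (95% exact Poisson interval 50.3 to 73.6), and 3.6% of all regions had as many or more. In ENR it had 2 reads, or 5.67 RPM (0.687 to 20.5), and in CV 0. The ENR and EN intervals did not overlap at this 1 of the 35 regions, where those of 9.03% of all regions did not overlap (3.82% with EN higher and 5.21% with EN lower). Treh -8 had 9 reads in ENR, or 25.5 RPM (11.7 to 48.5), and 29 in EN, or 16 RPM (10.7 to 22.9), with overlapping intervals. At Mgam the EN values were 22 RPM (15.7 to 30) at Mgam -2449, from 40 reads, and 15.4 RPM (10.2 to 22.3) at Mgam +16895, from 28 reads. Sis +1090, with the largest H3K27ac difference of the 35 regions, had 16 reads or 8.81 RPM (5.03 to 14.3), and Lct +4870, with the largest ATAC change, 8 reads or 4.4 RPM (1.9 to 8.68), a level that 38.3% of all regions reached.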

How the data were processed

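The members and the related gene lists were chosen with earlier results of these data known. RNA was quantified by the authors with kallisto (version 0.43.0 in the submitters' processing notes) against RefSeq transcripts whose proteins they had quantified plus 92 ERCC spike-ins. They deposited expected counts, TPM and an mRNA copy number signal scaled to the spike-ins. Reads of ATAC-seq and ChIPmentation were mapped to mm9 with BWA, and peaks were called with MACS2 2.0. For the union of peaks the authors deposited normalized read numbers rounded to whole numbers, called a score here, and for Hnf4g raw counts per region. The libraries used had 5630951 to 8859744 RNA counts, and the summed scores per library ranged from 1752385 to 2109261 for ATAC and from 817265 to 1760511 for the histone marks. In ATAC, H3K27ac and H3K4me3 every EN library had a higher sum than every CV and ENR library.

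Expected counts, of which 76.1% were whole, were rounded. The 9288 transcripts detected (count over 0) by 4 or more of the 12 libraries entered edgeR 4.0.16 (quasi-likelihood, TMM, 1 fit over the 3 cultures, R 4.3.3), with Benjamini-Hochberg adjustment over all of them and a call at an adjusted p under 0.01. Scores above 0 in at least 3 libraries were tested as log2(score + 1) with limma 3.58.1 with a trend, 1 fit per assay, and called at an adjusted p under 0.05. Intervals of Hnf4g reads are exact Poisson intervals at 95% and, like the limit of 3 counts, cover counting error only. Differences between members used exact two-sided permutation tests. The scripts were tested on simulated data with known changes. In each list the named genes are those with the largest and the lowest change, and any other was chosen after its values were seen. The named regions are those at starts and, per gene, those with the highest mean ATAC score and the largest ATAC difference, and others were chosen after their values were seen. Alternatives were DESeq2 1.42.0, other scalings, pseudocounts and filters, no trend, quantile normalization, a replicate block, the study's thresholds and each library left out. Of 66 samples 54 had a column that was used. Another 10 histone mark libraries had no column, and the other two samples were not analysed here. Some genes and a motif of the lists are not reported here by name.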

Additional observations from a re-analysis of the deposited data

Results flagged for a closer look

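Of 117 groups of 4 libraries, covering the TPM of the members and the ATAC scores of their 35 regions, 16 held a library whose gap to its nearest neighbor exceeded, as a share of the range of the group, Dixon's 95% critical value. For continuous values chance gives about 1 in 20 such groups. Small whole-number scores hold many ties, so that rate cannot gauge the count here. None of the 16 was a TPM group, and most rest on a difference of 1 in a whole-number score.

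The largest gap was at the Lct exon region Lct +24222, where EN replicate 3 had 78 and the others 7, 8 and 15. At Mgam -2449, EN replicate 4 had 61 beside 35, 35 and 36, and CV replicate 1 had 17 beside 22, 22 and 23. At Mgam -136, ENR replicate 1 had 14 beside 25, 26 and 26. At Mgam +16895, CV replicate 3 had 6 where the others had 5.

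The remaining libraries stood apart in regions with low scores. At Lct +13650, CV replicate 4 had 0 beside 1 in each of the others, and ENR replicate 2 had 2 beside 1. At Mgam +121727, EN replicate 4 had 2 beside 3 and ENR replicate 4 had 5 beside 4. ENR replicate 1 had 2 beside 1 at Mgam +434 and 0 beside 2 at Mgam +7488. At Sis +80524, CV replicate 2 had 1 beside 0 and ENR replicate 3 had 2 beside 1, and at Sis +82694 ENR replicate 2 had 1 beside 2. At Treh +17765, CV replicate 4 had 5 beside 4 and ENR replicate 4 had 4 beside 3.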

How the results depend on the processing

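The members kept their direction in all 252 results of other settings for the RNA comparisons, and 5 of these changed a call, all between CV and ENR for Mgam and Lct. Over all transcripts, the number called between CV and ENR was 5569, and 2636 with spike-in scaling and 1780 with deposited copies. Without 1 library the counts were 6903 to 7071 for EN against CV, 6543 to 6765 for EN against ENR and 5187 to 5668 for CV against ENR, and 16 to 17 of the 18 differences between members passed.

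Region calls depended more on the setting. At the study's thresholds, ATAC gave 3940 in place of 33155 regions for EN against CV and 952 in place of 22616 against ENR, H3K27ac 1282 and 124, H3K4me3 0 and 0, and H3K27me3 154 and 0. These thresholds were applied here to limma on the scores, while the study used DESeq2, so the counts are not the study's own calls. Of the 6 and 3 member calls in H3K27ac, 1 each was kept, at Sis +1090, and of the 5 and 4 in H3K4me3 0 were. Without a trend, H3K27ac gave 924 and 1 in place of 6627 and 1480, and H3K27me3 0 and 0 in place of 499 and 12. Quantile normalization gave 4238 and 709 for H3K27ac, 1769 in place of 4810 for H3K4me3 against ENR, and 147 and 0 for H3K27me3, and a pseudocount of 5 gave 1 for H3K27me3 against ENR. Without 1 library, EN against CV and against ENR gave 28826 to 33747 and 18051 to 23109 in ATAC, 2836 to 5614 and 169 to 2558 in H3K27ac, 331 to 4250 and 1613 to 8975 in H3K4me3, and 109 to 769 and 0 to 119 in H3K27me3. The cause of these shifts was not tested.

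The labels do not say what a replicate number marks, and no assay had all same-numbered correlations above 0.1, so the numbers were not taken as pairs. The correlation of same-numbered deviations ranged from -0.059 to 0.095 in RNA, from 0.07 to 0.46 in ATAC (8 of 12 above 0.1), from -0.052 to 0.036 in H3K27ac, from -0.081 to 0.131 in H3K4me3 and from -0.043 to 0.02 in H3K27me3. In ATAC a library correlated best with its own number in 16 of 24 comparisons with another culture, a hint from the data and not from the design. The counts were 9 of 14 in H3K4me3, 4 of 10 in H3K27ac and 5 of 12 in H3K27me3. With a replicate block the counts for EN against CV, EN against ENR and CV against ENR were 7063, 6705 and 5457 in RNA. For EN against CV and EN against ENR they were 34713 and 26019 in ATAC, 0 and 0 in H3K27ac, 1927 and 4461 in H3K4me3, and 157 and 5 in H3K27me3. The H3K27ac member calls were all lost with the block, with adjusted p of 0.157 to 0.376 by limma. In the histone marks the block left few libraries to estimate the spread from, fewest in H3K27ac, where the numbers differ most between cultures. With 0 calls over all regions, this setting cannot show whether the H3K27ac member calls depend on the numbers. In H3K4me3 the calls from CV at Mgam +434 (adjusted p = 0.0646), Sis +38135 (0.0727) and Treh -8 (0.209, limma) were lost. In ATAC the difference of 0.93 between EN and ENR at Sis +1090 was called only with the block (adjusted p = 0.0485 by limma).

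Region differences were rerun in other settings only at starts, at the named ATAC regions and where they were called. Many uncalled differences were therefore not checked for a change of sign. Among those rerun, the direction changed in 4, none of which was called. ATAC at Sis -36 between EN and ENR was -0.0672 with quantile normalization and -0.18 to 0.19 without 1 library. H3K27me3 between EN and CV was -0.26 at Mgam -136 with a replicate block and -0.21 to 0.82 without 1 library, and -0.15 to 1.58 at Sis +1090, and between EN and ENR it was -0.93 to 0.10 at Treh +324 without 1 library. Lct in CV, with a coefficient of variation of 25.3%, is the least precise RNA level of the members, and Hnf4g in CV, with 84340 reads in regions, cannot show binding below 35.6 RPM.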
